A study of Mus musculus with 23 samples.

Results

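Iron absorption and storage in the small intestine was followed through 8 genes in 23 RNA-seq libraries of mouse small intestine. The genes were Cybrd1, Slc11a2, Slc40a1, Heph, Tfrc, Fth1, Ftl1 and Epas1, taken by their NCBI Gene numbers from a table of FPKM values (fragments of a transcript, corrected for its length and for the size of the library) that lists 17842 such numbers. All 8 were found in the table, and 7 of them reached a mean of 1 FPKM over the libraries and were tested together with 11337 genes in all. Cybrd1 stayed under that level and is given by its values alone. The genes were chosen for their roles and not for their values in these libraries, although earlier results of the same data were known.

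The mice were male ICR mice, and every group had received busulfan, an anticancer drug, as a single dose of 40 mg/kg body weight at 3 weeks of age. From the next day on they were given saline (Sa) or a fecal microbiota transplant (FMT) by daily oral gavage for 1 week, and they were sampled at 5 weeks of age. The transplants were intestinal luminal contents pooled from donors that had been dosed for 3 weeks with ddH2O (Con-FMT), with alginate oligosaccharide (AOS) at 10 mg/kg (A10-FMT) or with 100 mg/kg of AOS (A100-FMT). In the sample names, Sa, IMC, IMA10 and IMA100 were read as these 4 treatments. Each treatment comes in 2 series of sample codes, called set 1 and set 2 here, and neither the records nor the paper say what the sets are or which of them had the schedule above. There were 3 libraries per treatment and set, apart from Sa in set 1 with 2 libraries, numbered 1 and 3, which makes 8 groups. No group without busulfan is among them, so the values compare treatments after busulfan and not with an untreated intestine. The records list the libraries as separate samples without naming animals, so the p-values measure the spread between these samples.

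Sa replicate 3 of set 1 stood apart from the other 22 libraries. Its values deviated with the GC content of the genes (a Spearman's rho of 0.69, while the others had -0.22 to 0.22), and its correlation with the other libraries was 0.944 to 0.965, while the others correlated with each other at 0.968 to 0.991. The record of this library also names 2 columns, with the number 3 in its title and the number 2 in its description. The column of the title was used, the column of the description (rho of -0.087) was computed as an alternative, and the comparisons that rest on this library are given with and without it. The markers of the labelled tissue were high, as the 7 enterocyte genes Vil1, Fabp2, Anpep, Sis, Cdh17, Apoa4 and Alpi summed to between 3779 and 9278 FPKM per library. The 8 macrophage markers summed to no more than 2.13 FPKM and the 5 endothelial markers in the table to no more than 0.26 FPKM. Markers of the proximal small intestine summed to 715 to 2459 FPKM per library, and those of the distal part to 603 to 1669 FPKM. Neither the sample titles nor the paper name the segment that was sampled. The sequencing depth is not known from FPKM values, so no counting error can be given, and fewer cells of a type cannot be told apart from less RNA per cell in a piece of tissue.

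Dietary iron enters the body through the enterocytes of the proximal small intestine. Ferric iron is reduced at the brush border by the reductase duodenal cytochrome b (Cybrd1) and taken up as ferrous iron by the divalent metal transporter DMT1 (Slc11a2). Inside the cell it is stored in ferritin, a shell built of heavy (Fth1) and light (Ftl1) chains, or leaves through ferroportin (Slc40a1), the only known iron exporter of mammals, after which the ferroxidase hephaestin (Heph) oxidizes it for binding to plasma transferrin. The transferrin receptor (Tfrc) takes up transferrin-bound iron and is most abundant in dividing cells. HIF-2alpha (Epas1) is the oxygen-regulated transcription factor known to drive Cybrd1, Slc11a2 and Slc40a1 in the iron-deficient duodenum. Iron regulatory proteins bind hairpins in the mRNA, the iron-responsive elements, and block translation when the hairpin lies in the 5′ UTR or stabilize the mRNA when it lies in the 3′ UTR. RNA levels of ferritin therefore need not follow ferritin protein, which was not measured here.

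By RefSeq on GRCm38.p6, the build that mm10 stands for, the genes lie on 8 different chromosomes. The uptake genes are Cybrd1 (NCBI Gene 73649) at chr2:71118054-71142926 and Slc11a2 (18174) at chr15:100387898-100424209, and the storage genes Fth1 (14319) at chr19:9980600-9985111 and Ftl1 (14325) at chr7:45457944-45459886. The export genes are Slc40a1 (53945) at chr1:45908070-45926532 and Heph (15203) at chrX:96455436-96574485. Tfrc (22042) lies at chr16:32608896-32632794 and Epas1 (13819) at chr17:86753864-86833410.

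The hairpins are shown because they are shared by members on both sides of this control. The UTRs of all 8 genes in the GENCODE M21 annotation of GRCm38 were searched on the transcript strand for a C, 5 bases, the loop CAGTGN and 5 bases that pair with the first 5, with G-T pairs allowed. The letters were found in 4 of the 8 genes, in the 5′ UTR of Fth1, Ftl1 and Slc40a1 and at 4 places in the 3′ UTR of Tfrc. Of 21760 protein-coding genes, 155 (0.712%) held them in a UTR, with 28 (0.129%) in the 5′ UTR and 127 (0.584%) in the 3′ UTR. The match is to letters alone. A hairpin with an unpaired or extra base in these 5 pairs, or with another loop, would be missed. Genes without a match can therefore not be said to lack an element, and Tfrc may hold further ones. In the lines that follow, written 5′ to 3′ as DNA of the transcript strand, the 6 loop bases are in capitals and stand in a window of 27 bases.
Fth1, 5′ UTR, chr19:9982733-9982759, plus strand: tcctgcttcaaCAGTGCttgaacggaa
Ftl1, 5′ UTR, chr7:45459780-45459806, minus strand: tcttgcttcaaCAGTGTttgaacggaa
Slc40a1, 5′ UTR, chr1:45925466-45925492, minus strand: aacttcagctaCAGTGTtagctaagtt
Tfrc, 3′ UTR, chr16:32631220-32631246, plus strand: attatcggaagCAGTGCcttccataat
Tfrc, 3′ UTR, chr16:32631599-32631625, plus strand: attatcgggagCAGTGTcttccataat
Tfrc, 3′ UTR, chr16:32631664-32631690, plus strand: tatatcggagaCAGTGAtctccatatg
Tfrc, 3′ UTR, chr16:32631711-32631737, plus strand: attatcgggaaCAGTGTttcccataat

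Storage genes were by far the most abundant of the 8 on the length-corrected FPKM scale. Fth1 had a mean of 1929 FPKM over the 23 libraries (1738 to 2385) and Ftl1 1259 FPKM (1108 to 1695), and Fth1 was above Ftl1 in 23 of 23 libraries, with a ratio of 1.31 to 1.69 and a median of 1.53. Tfrc followed at 56.6 FPKM (28.9 to 67.0), Heph at 38.3 FPKM (18.8 to 50.6), Slc40a1 at 27.5 FPKM (13.4 to 43.2) and Slc11a2 at 25.3 FPKM (22.1 to 30.3). The lowest values of Tfrc, Heph and Slc40a1 were all in the library that stood apart, and without it they began at 45.3, 29.9 and 18.0 FPKM. Epas1 was low, at 2.58 FPKM (2.04 to 3.41), and Cybrd1 lowest, at 0.557 FPKM (0.25 to 1.49).

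The order was the same in every library at both ends of the scale, but not in the middle. Tfrc was above Heph in 21 of 23 libraries, and Heph above Slc40a1 in 21 of 23, with overlapping ranges in both cases. Slc40a1 and Slc11a2 could not be ordered, as Slc40a1 was higher in 13 of the 23 libraries. Slc11a2 was above Epas1, and Epas1 above Cybrd1, in all 23. RefSeq names pseudogenes of the ferritin chains (2 of Fth1 and 3 of the light chain) and none is among the symbols of the table, so that reads shared with such copies make the levels of Fth1 and Ftl1 less certain than the others.

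**Figure D1:**
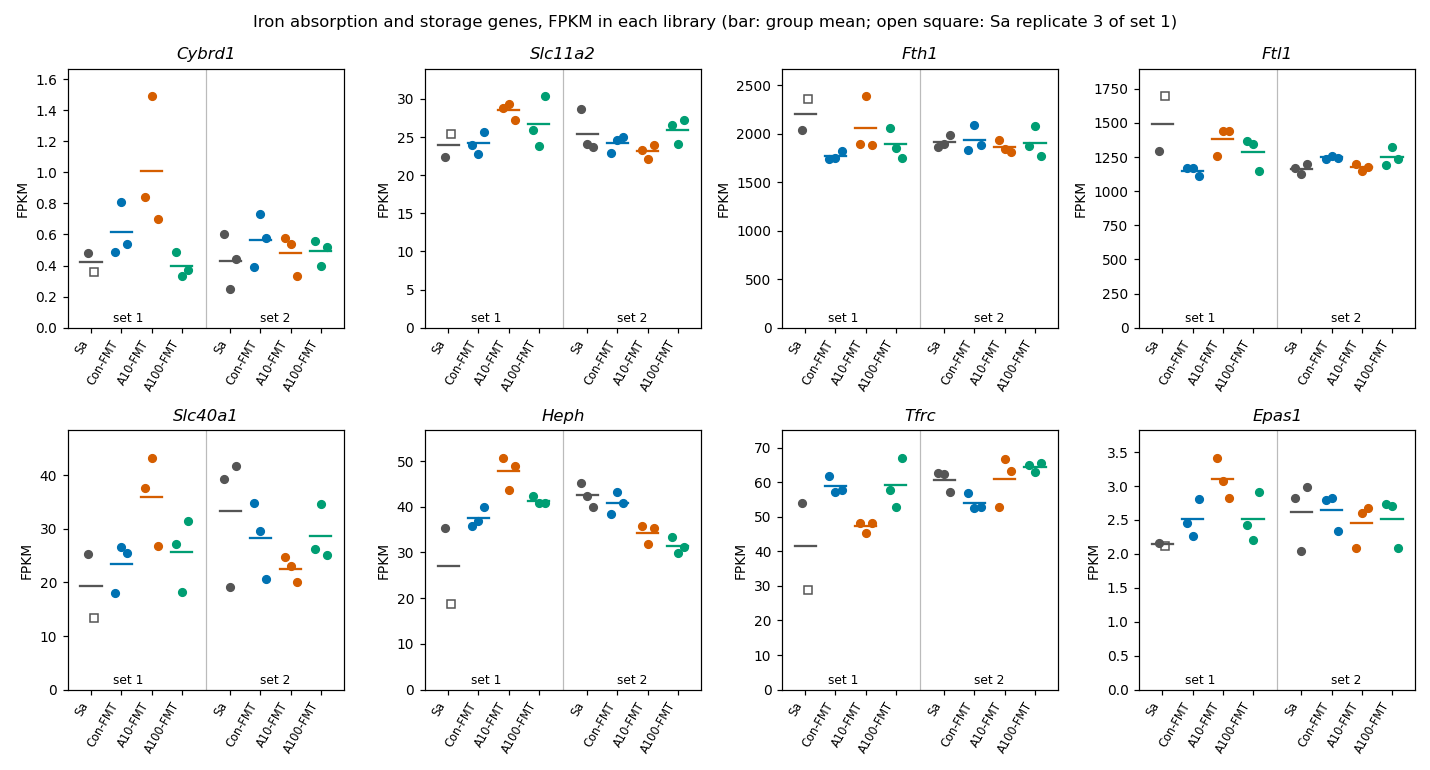
FPKM (vertical axes, linear from 0) of the 8 genes in each of the 23 libraries, by treatment and set (horizontal axes), with the group mean as a bar and Sa replicate 3 of set 1 as an open square. In set 1 the A10-FMT libraries lie above all Con-FMT libraries for Slc11a2, Slc40a1, Heph, Fth1, Ftl1 and Epas1 and below them for Tfrc, and in set 2 A10-FMT and A100-FMT lie below Con-FMT for Heph.

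Of the uptake genes, Slc11a2 was highest in A10-FMT of set 1 and Cybrd1 was close to the lower end of the table throughout. In set 1, Slc11a2 stood at 28.8, 29.4 and 27.3 FPKM in A10-FMT and at 24.0, 22.8 and 25.7 FPKM in Con-FMT, so that all 3 A10-FMT libraries were above all 3 of Con-FMT. The Sa libraries of set 1 were at 22.4 and 25.4 FPKM, and those of A100-FMT at 26.0, 23.8 and 30.3 FPKM, overlapping with both. Slc11a2 in A10-FMT relative to Sa of set 1 had a log2 change of 0.24 (SE 0.095, adjusted p = 0.058, limma) and was not called. With the column of the description it was 0.29 and called (adjusted p = 0.019, limma), beside 33.8% of all genes. In set 2 the A10-FMT libraries were among the lowest, at 23.3, 22.1 and 24.0 FPKM, against 22.9, 24.6 and 25.0 FPKM in Con-FMT. Slc11a2 in A10-FMT relative to Con-FMT of set 1 had a log2 change of 0.23 (SE 0.085, adjusted p = 0.073 with limma), which passed the threshold without Sa replicate 3 of set 1 (adjusted p = 0.040), a library in neither group that enters through the shared estimate of the spread and the adjustment over all genes.

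The Cybrd1 values were under 1 FPKM in 22 libraries and 1.49 FPKM in A10-FMT replicate 2 of set 1. The A10-FMT libraries of set 1 had 0.84, 1.49 and 0.70 FPKM and those of Con-FMT 0.49, 0.81 and 0.54 FPKM, which overlap. Cybrd1 in set 2 lay between 0.25 and 0.73 FPKM in all 12 libraries. No test was made, as the gene was under the level required.

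The ferritin genes differed between groups by small factors. Ftl1 in set 1 was at 1256, 1439 and 1441 FPKM in A10-FMT and at 1168, 1173 and 1108 FPKM in Con-FMT, without overlap. Its mean was 1379 ± 106 FPKM in A10-FMT and 1149.8 ± 36.0 FPKM in Con-FMT (SD, n = 3 each), a log2 change of 0.26 (SE 0.086) or 1.20-fold with an adjusted p of 0.045 (limma), and 0.0069 without the Sa library that stood apart. This call was lost in 20 of 33 recomputations, with an adjusted p of up to 0.16, among them 5 of the 6 that left out a library of these groups (each Con-FMT library and A10-FMT replicates 2 and 3), 12 that left out another library (adjusted p of 0.051 to 0.056), the test of all genes above 0, the groups alone and the replicate block. Fth1 stood at 1893, 2385 and 1887 FPKM in A10-FMT and at 1738, 1754 and 1817 FPKM in Con-FMT of set 1, again without overlap. Its log2 change of 0.21 (SE 0.091) did not pass, with an adjusted p of 0.13, and 0.073 without the doubted library. In set 2 the order of Ftl1 was the other way round, as its 3 A10-FMT libraries (1201, 1145 and 1178 FPKM) were all below those of Con-FMT (1238, 1259.6 and 1245 FPKM), by a log2 change of -0.09 (SE 0.086, adjusted p = 0.75).

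The highest Ftl1 value of all, 1695 FPKM, and the second highest Fth1 value, 2359.9 FPKM, belonged to Sa replicate 3 of set 1, while Sa replicate 1 had 1294 and 2040.4 FPKM. Fth1 and Ftl1 were called lower in Con-FMT than in Sa of set 1, with log2 changes of -0.31 (adjusted p = 0.036, limma) and -0.37 (adjusted p = 0.026). Both calls were lost without that library, at -0.21 (adjusted p = 0.79) and -0.17 (adjusted p = 0.76). The ratio of Fth1 to Ftl1 had group means of 1.47 (A100-FMT) to 1.54 (Con-FMT) in set 1 and of 1.53 (A100-FMT) to 1.64 (Sa) in set 2, so that the heavy chain RNA stayed above the light chain RNA in each group.

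Heph, the ferroxidase that works beside ferroportin, was highest in A10-FMT in set 1 and lower in A10-FMT and A100-FMT than in the other groups in set 2. In set 1 it was at 50.6, 43.7 and 48.9 FPKM in A10-FMT, at 42.4, 40.8 and 40.9 FPKM in A100-FMT, at 35.7, 37.0 and 39.9 FPKM in Con-FMT and at 35.3 and 18.8 FPKM in Sa. The 3 groups that had received FMT did not overlap with each other, and A10-FMT was the highest. In set 2 A10-FMT (35.9, 31.8 and 35.4 FPKM) and A100-FMT (33.4, 29.9 and 31.3 FPKM) were instead below all libraries of Con-FMT (38.4, 43.3 and 40.8 FPKM) and of Sa (45.3, 42.4 and 39.9 FPKM). In set 1, Heph was 47.7 ± 3.61 FPKM in A10-FMT and 37.5 ± 2.15 FPKM in Con-FMT (SD, n = 3 each), a log2 change of 0.34 (SE 0.138) or 1.26-fold, with an adjusted p of 0.10 (limma) and of 0.0017 without the doubted Sa library. In set 2 it was 34.4 ± 2.24 FPKM in A10-FMT, 31.5 ± 1.73 FPKM in A100-FMT and 40.8 ± 2.49 FPKM in Con-FMT, with log2 changes of -0.24 (adjusted p = 0.51) and -0.36 (adjusted p = 0.33). Without the doubted library these were unchanged in size and had adjusted p of 0.066 and 0.018, so that only the second was called.

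Heph was higher than in Sa of set 1 in all 3 FMT groups, by log2 changes of 0.52 (adjusted p = 0.028) in Con-FMT, 0.86 (adjusted p = 0.0012) in A10-FMT and 0.66 (adjusted p = 0.0088) in A100-FMT. These comparisons share the 2 Sa libraries. Without Sa replicate 3 the log2 changes were 0.09 (adjusted p = 0.89), 0.42 (adjusted p = 0.017) and 0.22 (adjusted p = 0.33), each against the single Sa library left, whose spread was taken to be that of the other groups. Of the members called against Sa in set 1, Heph in A10-FMT alone stayed called without the library, and with the column of the description the changes were 0.26 in Con-FMT (adjusted p = 0.25), 0.60 in A10-FMT (adjusted p = 0.00027) and 0.40 in A100-FMT (adjusted p = 0.014).

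Slc40a1, the exporter, spread widely within groups. In set 1 it was at 37.7, 43.2 and 26.9 FPKM in A10-FMT and at 18.0, 26.6 and 25.5 FPKM in Con-FMT, so that the lowest A10-FMT library was just above the highest of Con-FMT. A100-FMT of set 1 had 27.1, 18.2 and 31.5 FPKM and Sa 25.3 and 13.4 FPKM. In set 2 the groups overlapped, with 24.7, 23.1 and 20.0 FPKM in A10-FMT, 26.3, 34.7 and 25.1 FPKM in A100-FMT, 34.9, 29.6 and 20.6 FPKM in Con-FMT and 39.3, 19.1 and 41.7 FPKM in Sa. Its log2 change between A10-FMT and Con-FMT of set 1 was 0.59 (SE 0.293, 1.51-fold), the largest of the 7 tested genes, and did not pass (adjusted p = 0.17, limma). Relative to Sa of set 1 it was 0.90 higher in A10-FMT (SE 0.327, adjusted p = 0.045), and 0.46 without Sa replicate 3 (adjusted p = 0.48).

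Tfrc, the receptor for transferrin-bound iron, moved opposite to the others in A10-FMT of set 1. It stood at 48.3, 45.3 and 48.3 FPKM in A10-FMT, below all libraries of Con-FMT (61.9, 57.2 and 57.7 FPKM) and of A100-FMT (57.9, 52.8 and 67.0 FPKM). Sa of set 1 had 54.1 FPKM in replicate 1 and 28.9 FPKM in replicate 3, the lowest value of all. In set 2 Tfrc was at 65.0, 63.0 and 65.7 FPKM in A100-FMT, above all libraries of Con-FMT (57.0, 52.5 and 52.9 FPKM), while A10-FMT (53.0, 66.9 and 63.3 FPKM) overlapped with Con-FMT and Sa had 62.8, 62.3 and 57.2 FPKM. The log2 change between A10-FMT and Con-FMT of set 1 was -0.31 (SE 0.145, 0.806-fold, adjusted p = 0.15, limma) and was called without the doubted library (adjusted p = 0.0089). The calls against Sa of set 1, 0.56 in Con-FMT (adjusted p = 0.028) and 0.56 in A100-FMT (adjusted p = 0.018), fell to 0.12 in each without Sa replicate 3 (adjusted p = 0.87 and 0.70).

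Epas1 in set 1 was at 3.41, 3.08 and 2.83 FPKM in A10-FMT, above 2.46, 2.27 and 2.81 FPKM in Con-FMT, with only 0.02 FPKM between the nearest libraries. A100-FMT of set 1 (2.43, 2.20 and 2.91 FPKM) overlapped with both, and Sa was at 2.16 and 2.12 FPKM. The set 2 libraries ran from 2.04 to 2.99 FPKM with all groups overlapping. Epas1 was called in A10-FMT relative to Sa of set 1, with a log2 change of 0.38 (SE 0.128, adjusted p = 0.030, limma). The change kept its size but not its call without Sa replicate 3, which leaves 1 Sa library in that group. With the column of the description it fell to 0.26 and was not called (adjusted p = 0.13, limma). At such low FPKM the pseudocount of 1 makes log2 changes smaller than those of the values themselves.

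Counted over the members, the comparison of A10-FMT with Con-FMT in set 1 showed the most complete separation. All 7 tested members had libraries that did not overlap between these groups, 6 of them higher in A10-FMT (Slc11a2, Slc40a1, Heph, Fth1, Ftl1 and Epas1) and Tfrc lower, beside 42.1% of all genes tested. The test called 1 of the 7 (Ftl1, higher), where 16.7% of all genes were called. An unadjusted p under 0.05 was found for 5 of the 7 and for 3605 of the 11337 genes. The median log2 change was 0.23 over the members and -0.08 over all genes. Without the doubted Sa library 4 were called (Ftl1, Heph and Slc11a2 higher, Tfrc lower), beside 32.8% of all genes. With the same genes measured in the same 6 libraries, the changes themselves were not altered by leaving it out.

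A100-FMT, in which the donors had the higher AOS dose, differed less from Con-FMT in set 1. Heph did not overlap, 1 of 7 members where the share of all genes was 21.8%, and 0 of 7 were called, where the test called 0.406% of all genes and 0 members had an unadjusted p under 0.05. In set 2 the comparison of A10-FMT with Con-FMT had 2 members without overlap, Heph and Ftl1, both lower (25.3% of all genes), and none called (0.379% of all genes, 0 members at an unadjusted p under 0.05). A100-FMT relative to Con-FMT in set 2 had 2 members without overlap, Heph lower and Tfrc higher (22.6% of all genes), and none called by the test, which called 0% of all genes there, with 1 member, Heph, at an unadjusted p under 0.05. Over all 11337 genes, 1282, 1348 and 1270 had such a p in these comparisons, in the order given.

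**Figure D2:**
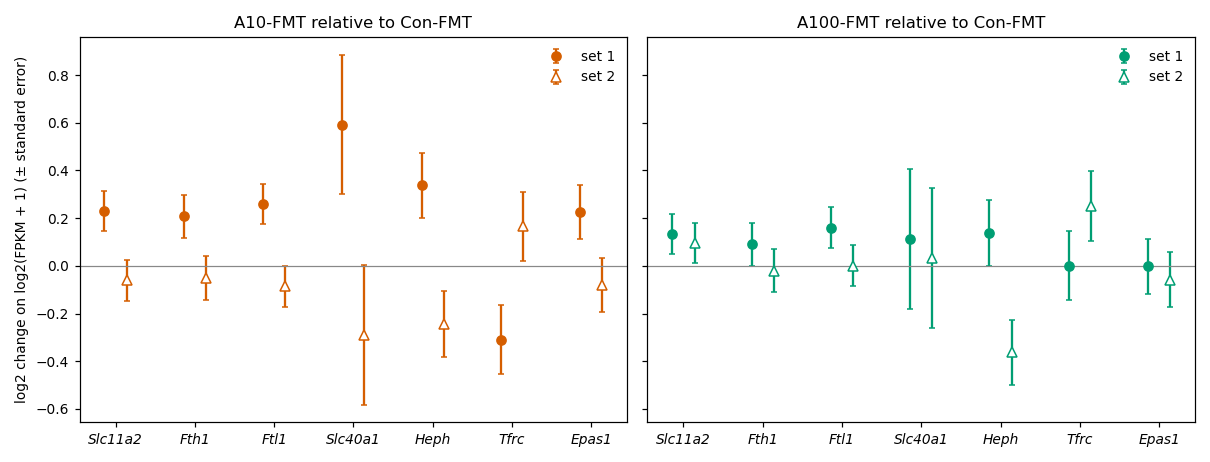
Change of the 7 tested genes relative to Con-FMT as a difference of log2(FPKM + 1) (vertical axes; points are estimates and bars 1 standard error from limma), for A10-FMT (left) and A100-FMT (right) in set 1 (filled circles) and set 2 (open triangles). For A10-FMT every gene lies on opposite sides of 0 in set 1 and set 2, from 0.59 and -0.29 for Slc40a1 to -0.31 and 0.17 for Tfrc.

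Compared with Sa, members were called in set 1 and not in set 2. In set 1, 4 of 7 were called in Con-FMT (Tfrc and Heph higher, Fth1 and Ftl1 lower), 3 in A10-FMT (Heph, Slc40a1 and Epas1 higher) and 2 in A100-FMT (Tfrc and Heph higher). The test called 26.9%, 32% and 35.2% of all genes in these comparisons, which share the Sa libraries. Without Sa replicate 3 the members called were 0, 1 (Heph) and 0, beside 0.00881%, 8.12% and 0.238% of all genes. In set 2 none of the 7 was called in Con-FMT (0.0353% of all genes), A10-FMT (0.423%) or A100-FMT (0.0353%), with 0, 1 and 1 members at an unadjusted p under 0.05, in both cases Heph. Such a p was found for 651, 1627 and 1606 of the 11337 genes. Heph in set 2 was lower than in Sa by log2 changes of -0.30 in A10-FMT (adjusted p = 0.33, limma) and -0.42 in A100-FMT (adjusted p = 0.19), and both were called without the doubted library of set 1 (adjusted p = 0.026 and 0.010), beside 3.43% and 5.08% of all genes.

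An interaction term, the change in set 2 minus the change in set 1, tested for a difference of the FMT change between the sets. For A10-FMT relative to Sa, 3 of 7 members were called, all lower (Heph, Slc40a1 and Slc11a2), where 28.4% of all genes were. The differences of log2 changes were -1.16 for Heph (SE 0.207, adjusted p = 0.000976, limma), -1.37 for Slc40a1 (SE 0.439, adjusted p = 0.027) and -0.37 for Slc11a2 (SE 0.128, adjusted p = 0.037). For A100-FMT, Heph alone was called (-1.08, SE 0.207, adjusted p = 0.0070), where 26.8% of all genes were. For Con-FMT none of the 7 was called, where 0.00882% of all genes were. There 4 members and 3893 of the 11337 genes had an unadjusted p under 0.05. Without Sa replicate 3 of set 1 none was called for Con-FMT, beside 0.00881% of all genes, and 1 had an unadjusted p under 0.05.

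Heph stayed called without Sa replicate 3 of set 1, with smaller differences of -0.72 for A10-FMT (adjusted p = 0.0013) and -0.64 for A100-FMT (adjusted p = 0.020), beside 20.4% and 4.09% of all genes. Slc11a2 stayed called for A10-FMT at -0.46 (adjusted p = 0.031), and Slc40a1 did not, at -0.93 (adjusted p = 0.18). With Con-FMT as the control, a setting chosen after the data were seen and free of Sa libraries in the contrast, the difference for A10-FMT was -0.58 for Heph (SE 0.195, adjusted p = 0.042), 0.48 for Tfrc (adjusted p = 0.11) and -0.35 for Ftl1 (adjusted p = 0.050), beside 20.8% of all genes. With Sa replicate 3 also left out of the fit, the adjusted p was 0.00038 for Heph, 0.0048 for Tfrc and 0.0084 for Ftl1, so that all 3 were called, beside 36.8% of all genes. For A100-FMT with Con-FMT as the control, Heph differed by -0.50 (adjusted p = 0.29), and by the same amount with an adjusted p of 0.022 without the doubted library.

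**Figure D3:**
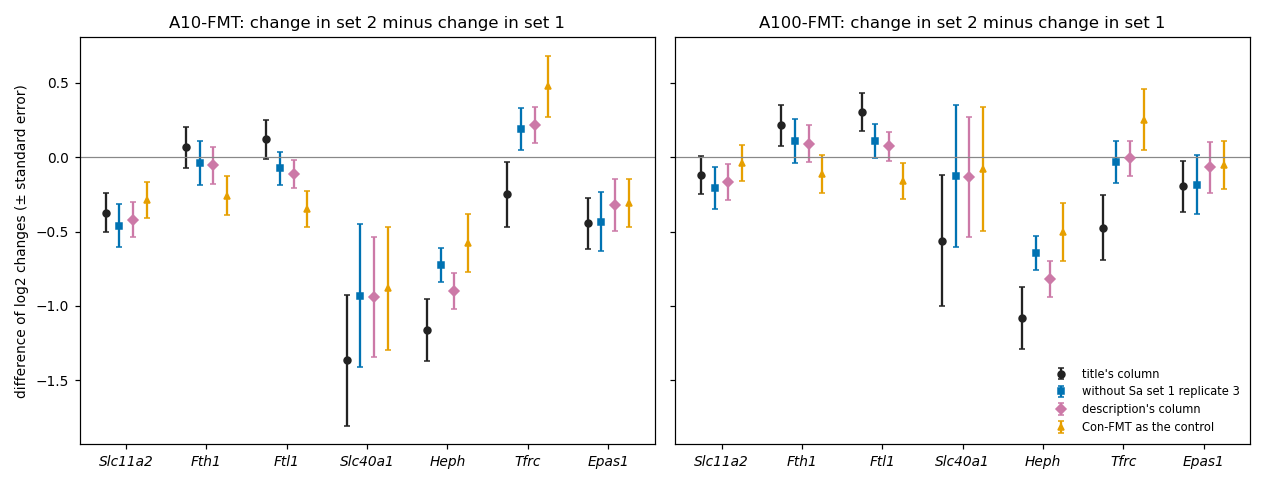
Difference between the sets in the change of the 7 tested genes, as log2 change in set 2 minus log2 change in set 1 (vertical axes; bars are 1 standard error), for A10-FMT (left) and A100-FMT (right). The 4 symbols are the comparison with Sa using the column of the title of Sa replicate 3, without that library, with the column of its description, and the comparison with Con-FMT in place of Sa. Heph lies below 0 by at least 0.50 under all 4, and Tfrc is on different sides of 0.

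Averaged over both sets, no member was called in any comparison. The share of all genes called was 0.75% for Con-FMT, 0.132% for A10-FMT and 0.891% for A100-FMT relative to Sa, and 0% for A10-FMT and 0.123% for A100-FMT relative to Con-FMT, with 2, 1, 1, 0 and 0 members at an unadjusted p under 0.05. Of the 11337 genes, 2659, 2260, 2987, 697 and 1097 had such a p. The largest of these changes, 0.32 for Tfrc in A100-FMT relative to Sa (SE 0.109, adjusted p = 0.10), was 0.10 without Sa replicate 3 of set 1 (SE 0.070, adjusted p = 0.65). Without that library no member was called over both sets either, beside 0.352%, 0% and 0% of all genes relative to Sa and 0% and 1.68% relative to Con-FMT, with 0, 0, 0, 0 and 2 members at an unadjusted p under 0.05. Between the sets themselves, the mean of the 3 FMT treatments in set 2 relative to set 1, which uses no Sa library, called none of the 7 members where 9.64% of all genes were called. Heph was the nearest, at -0.24 (SE 0.079, adjusted p = 0.060), and was called without the doubted Sa library (adjusted p = 0.0011), beside 26.7% of all genes.

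Further genes of iron handling were followed in 6 lists of 57 genes, of which 44 were tested. The lists were reductases and iron carriers, haem handling, iron sensing by iron regulatory proteins, oxygen sensing, hypoxia targets, and plasma iron with the hepcidin axis. In A10-FMT relative to Con-FMT of set 1, 10 of the 44 (22.7%) were called, 6 higher and 4 lower, beside 16.7% of all genes, and without the doubted Sa library 18 (40.9%) were, 9 in each direction, beside 32.8%. None of the 44 was called in A100-FMT relative to Con-FMT of set 1, where 0.406% of all genes were. There 6 of the 44 and 1282 of the 11337 genes had an unadjusted p under 0.05. Relative to Sa of set 1 the numbers called higher and lower were 6 and 3 in Con-FMT, 11 and 9 in A10-FMT, and 8 and 8 in A100-FMT. These were 20.5%, 45.5% and 36.4% of the 44 beside 26.9%, 32% and 35.2% of all genes, and without Sa replicate 3 they were 0%, 22.7% and 0% beside 0.00881%, 8.12% and 0.238%. In set 2 and over both sets, no gene of the lists was called in any comparison but 1, Slc46a1. In these comparisons 2 to 16 of the 44 had an unadjusted p under 0.05, beside 651 to 2987 of the 11337 genes. In the interactions 17 of the 44 were called for A10-FMT (7 higher and 10 lower in set 2) and 14 for A100-FMT (7 in each direction), or 38.6% and 31.8% beside 28.4% and 26.8% of all genes. Without Sa replicate 3, which leaves 1 Sa library in set 1, fewer list genes were called in both interactions, and fewer of all genes too. In set 2 some list genes were then called relative to Sa and to Con-FMT, where more of all genes were called too. How many list genes were called is not given, so this is not a result about the iron genes.

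Slc46a1, a carrier of folate and haem in the proximal small intestine, was singled out after its values were seen. It was higher in A10-FMT than in Con-FMT of set 1 (log2 change 0.83, SE 0.135, adjusted p = 0.0012, limma) and lower in set 2 (-0.82, SE 0.135, adjusted p = 0.031). The most abundant genes of each list were the iron chaperones Pcbp1 (mean 319 FPKM over the libraries) and Pcbp2 (179 FPKM), the haem genes Alas1 and Abcg2, the cytosolic aconitase Aco1, which serves as iron regulatory protein 1, with Fbxl5, the oxygen-sensing genes Egln2 and Hif1a, the hypoxia targets Car9 and Ndrg1, and Neo1 and Hfe. Alas1, the first enzyme of haem synthesis, was at 77.2 ± 3.29 FPKM in A10-FMT and 66.0 ± 3.69 FPKM in Con-FMT of set 1 (SD, n = 3 each), with a log2 change of 0.22 (adjusted p = 0.048). Pcbp2 was called lower there (-0.23, adjusted p = 0.021), as was Neo1 (-0.29, adjusted p = 0.0035). Hepcidin (Hamp), the liver hormone that controls ferroportin, had at most 0.73 FPKM, and Hmox1, which degrades haem, a mean of 0.86 FPKM.

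Marker genes of enterocytes and of dividing crypt cells moved with these results. The sum of the 7 enterocyte markers was 7984 to 9278 FPKM in A10-FMT of set 1, 5781 to 6633 in A100-FMT, 5129 to 5642 in Con-FMT, and 4147 and 5431 in Sa. In set 2 it was 3779 to 4492 FPKM in A10-FMT, 5101 to 5418 in A100-FMT, 5363 to 6483 in Con-FMT and 5620 to 6220 in Sa. In A10-FMT relative to Con-FMT 5 of the 7 were called higher in set 1 (16.7% of all genes called) and 2 of the 7 lower in set 2 (0.379%), and all 7 were called lower in the A10-FMT interaction (28.4%). Without Sa replicate 3 of set 1 these were 6, 3 and 6 of the 7, beside 32.8%, 2.43% and 20.4% of all genes. A10-FMT thus held the highest sums in set 1 and the lowest in set 2, while Heph was highest in A10-FMT of set 1 and lowest in A100-FMT of set 2 by group means, the library that stood apart aside.

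The 8 proliferation markers (Mki67, Top2a, Mcm2, Mcm3, Mcm5, Mcm6, Ccnb1 and Cdk1) went the other way. They summed to 222 to 237 FPKM in A10-FMT of set 1, below 286 to 322 in Con-FMT, and to 319 to 336 in A10-FMT of set 2, above 277 to 313 in Con-FMT. In A10-FMT relative to Con-FMT of set 1, 7 of the 8 were called lower, beside 16.7% of all genes. The same comparison in set 2 called 0 of the 8, beside 0.379% of all genes. In the A10-FMT interaction 6 were called higher, beside 28.4% of all genes. Tfrc was lower in the same 3 libraries of A10-FMT of set 1. The markers of region moved too in set 1. There 3 of 6 genes of the proximal and 3 of 6 tested genes of the distal small intestine were called higher in A10-FMT than in Con-FMT. In set 2 that comparison called 0 genes of either list. The part of these markers in the changes of Heph, Tfrc and the other members was not tested. Erythroid markers summed to 0.23 to 40.4 FPKM, with their highest value in Con-FMT of set 2, and markers of smooth muscle, pancreatic acinar cells, T cells and B cells to at most 2.06, 6.84, 23.3 and 0.98 FPKM.

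**Figure D4:**
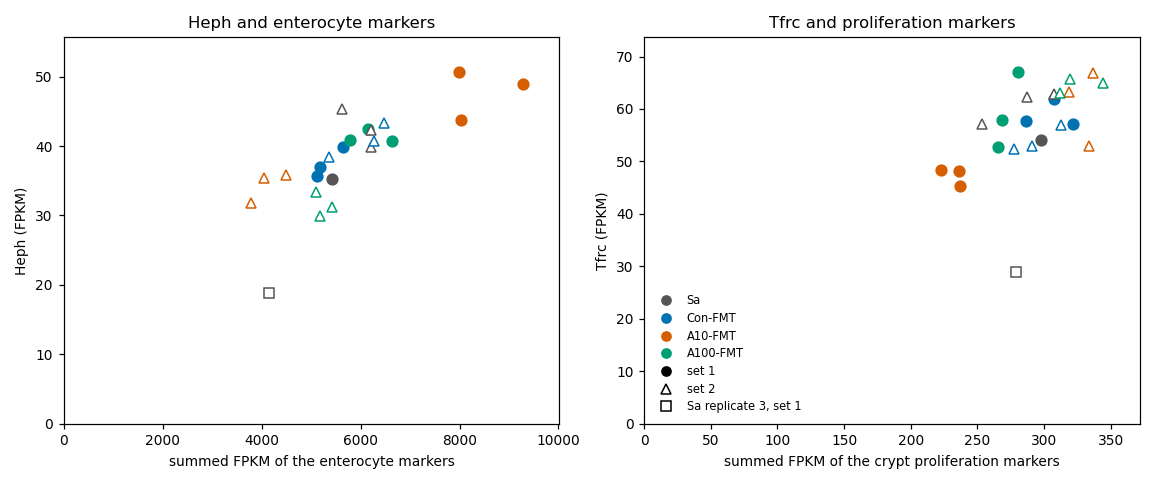
Heph against the summed enterocyte markers (left) and Tfrc against the summed crypt proliferation markers (right), both axes in FPKM and starting at 0, with 1 point per library, colours for treatment, filled circles for set 1, open triangles for set 2 and an open square for Sa replicate 3 of set 1. The A10-FMT libraries of set 1 are at the upper right of the left panel (7984 to 9278 FPKM of markers) and at the left of the right panel (222 to 237 FPKM).

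The members also varied with each other and with other genes, given here as a description over 23 libraries that share treatments, sets and the authors' normalization. The closest pair of members was Slc40a1 with Epas1 (Spearman's rho of 0.77, and 0.76 without Sa replicate 3 of set 1), followed by Fth1 with Ftl1 (0.68 and 0.63). Tfrc ran against Ftl1 (-0.67 and -0.63), Fth1 (-0.57 and -0.51) and Heph (-0.38 and -0.57). Heph with Epas1 had 0.53 (0.49 without that library) and Slc11a2 with Heph 0.51 (0.58). Among the tested genes other than the members, Heph was most like Mttp, which loads lipid onto lipoproteins in enterocytes, and Ptprh (both 0.93). Tfrc was most like Zkscan8 and Purb (both 0.93), Ftl1 like Ergic3 and Sra1 (both 0.87), Slc40a1 like the duodenal alkaline phosphatase Akp3 (0.81) and the calcium-binding protein S100g (0.78), and Fth1 like Pold4 (0.80) and Cox8a (0.76). Slc11a2 was most like Borcs6 (0.80) and Aqp8 (0.77), and Epas1 like Foxq1 (0.75) and Lhfpl2 (0.73). Of these 14 genes, 9 were also among the nearest without Sa replicate 3 of set 1, and 5 with Pearson's r on log2(FPKM + 1).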

How the data were processed

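Total RNA of mouse small intestine was isolated with TRIzol and sequenced by the authors on an Illumina HiSeq. The values deposited by the authors are FPKM with 2 decimals in 24 columns (23 libraries and an alternative column for Sa replicate 3 of set 1), with 16.2% of values at 0. The submitters' processing notes name mm10, while the aligner and annotation are not given in the sources used here. The paper names RPKM and DEGseq, which was not repeated here, and the depth is unknown.

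FPKM values were analysed as log2(FPKM + 1) for the 11337 genes whose mean reached 1 FPKM. A linear model with 1 mean for each of the 8 groups was fitted with limma 3.58.1 in R 4.3.3 (eBayes with a trend). Adjustment over all tested genes was by Benjamini-Hochberg, with a threshold of 0.05. The procedure was tested on simulated data in which genes varied independently and no library stood apart. The changes simulated there were larger than most of the member changes given here. Tables and figures used matplotlib 3.10.9, pandas 2.3.3, numpy 2.4.6 and scipy 1.17.1 under Python 3.11.15. Symbols were matched for 17725 of 17842 NCBI Gene numbers, and iron-responsive elements were read from GRCm38 with GENCODE M21.

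The members and the gene lists were chosen with earlier results of these data known. Genes named were the 8 members and, for each tested member, the 2 genes most like it by Spearman's rho. The latter were taken from the tested genes with a symbol, with the members left out. Also named were the 2 most abundant tested genes of each list of iron genes, as no list gene was called over both sets. Slc46a1 was named after its values were seen. Alternatives were leaving out each library in turn, a pseudocount of 0.1, testing all genes above 0 or those with a mean of 5 FPKM or more, trimmed-mean scaling, quantile normalization, fitting the compared groups alone, array quality weights, a replicate block, GC content and length adjustment (known for 10527 tested genes, 92.9%) and the column named in the description. Con-FMT as control in the interactions was added after the data were seen.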

Additional observations from a re-analysis of the deposited data

Results flagged for a closer look

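In 4 cases the change of a member by FMT relative to Sa differed between the sets by a test of the difference itself. For A10-FMT the change in set 2 minus that in set 1 was -1.16 on the log2 scale for Heph, -1.37 for Slc40a1 and -0.37 for Slc11a2, and for A100-FMT it was -1.08 for Heph (limma), beside 28.4% and 26.8% of all genes called. The call of Slc40a1 was lost without Sa replicate 3 of set 1 (adjusted p = 0.18) and with the description's column (adjusted p = 0.077), while the other 3 held under both. With Con-FMT in place of Sa, only Heph in A10-FMT of these 4 was called (adjusted p = 0.042, limma). The libraries behind the 4 are given in the report. All 4 flagged comparisons hold the Sa libraries of both sets. The summed enterocyte markers differed between the sets in the same direction, being higher in A10-FMT of set 1 (7984 to 9278 FPKM) than of set 2 (3779 to 4492 FPKM). For A100-FMT the difference was smaller, with 5781 to 6633 FPKM in set 1 and 5101 to 5418 FPKM in set 2. The part of the markers in these differences was not tested, and the meaning of the sets is not known, so that set and any condition that differs with it cannot be told apart.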

How the results depend on the processing

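Of 823 recomputed values of the 25 member changes stated, 667 kept their direction and side of the threshold, 111 lost and 43 gained a call, and 2 reversed. Reversed were Fth1 in Con-FMT relative to Sa of set 1 with quantile normalization (0.020, adjusted p = 0.88) and Ftl1 there with the GC content and length adjustment (0.00049, adjusted p = 0.998). The causes were not tested.

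Counts of members called are followed in parentheses by the share of all genes called under the same setting. In Con-FMT relative to Sa of set 1 (4) there were 2 with all genes above 0 (7.5%) and with quantile normalization (15.5%), and 0 with the compared groups alone (0.00882%), array quality weights (0%), the description's column (0.397%) and the GC content adjustment (6.19%). In A10-FMT relative to Sa of set 1 (3) there were 0 with the groups alone (0.00882%) and with weights (0%), and in A100-FMT (2) there were 0 with these (0.00882% and 0%) and 1 with the description's column (8.51%) and the GC content adjustment (24%). In A10-FMT relative to Con-FMT of set 1 (1) there were 0 with all genes above 0 (8.56%), 0 with the replicate block (15.5%), 3 with trimmed-mean scaling (13.2%) and with the groups alone (15.7%), 4 with weights (27.9%) and with the description's column (32.8%), and 5 with the GC content adjustment (20.3%). In set 2 (0 each) weights gave 1 in A10-FMT and 1 in A100-FMT relative to Sa (15.6% and 12.8%) and to Con-FMT (9.61% and 4.82%), the description's column 1 in A100-FMT relative to Sa (4.94%) and to Con-FMT (2.11%), and the GC content adjustment 1 in A100-FMT relative to Sa (1.26%). The A10-FMT interaction (3) had 1 with all genes above 0 (14.7%), with the groups alone (13%) and with Con-FMT as the control (20.8%), 0 with weights (0%) and 5 with the GC content adjustment (32.6%), and that of A100-FMT (1) had 0 with the groups alone (0.265%), with weights (0%) and with Con-FMT as the control (0%). Set 2 relative to set 1 (0) had 1 with quantile normalization (8.34%), trimmed-mean scaling (7.04%), the groups alone (24.3%), weights (26.7%) and the description's column (26.5%), and 2 with the GC content adjustment (15.5%). Calls of other iron genes were summed over the 3 comparisons with Sa over both sets (0). This sum was 2 with the description's column, where each of these comparisons called 0.591% to 1.38% of all genes. It was also 2 with the GC content adjustment. The share of all genes is not given there, so that count is not a result about the iron genes.

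The share of all genes called also moved with the library left out, and it is not given beside the counts that follow. These counts are therefore not results about the iron genes. When each library was left out in turn, the members called ranged in set 1 from 0 to 4 in Con-FMT, 1 to 5 in A10-FMT and 0 to 4 in A100-FMT relative to Sa, and from 0 to 4 in A10-FMT and 0 to 0 in A100-FMT relative to Con-FMT. In set 2 they ranged from 0 to 0 in Con-FMT, 0 to 1 in A10-FMT and 0 to 1 in A100-FMT relative to Sa, and from 0 to 0 in A10-FMT and 0 to 1 in A100-FMT relative to Con-FMT. Over both sets they ranged from 0 to 4, 0 to 3 and 0 to 3 relative to Sa, with the highest numbers without Sa replicate 1 of set 1, which leaves the library that stood apart alone in its group, and 0 to 0 relative to Con-FMT. The interactions ranged from 0 to 4 for Con-FMT, 1 to 4 for A10-FMT and 1 to 3 for A100-FMT, set 2 relative to set 1 from 0 to 1, and the calls of other iron genes, summed over the 3 comparisons with Sa over both sets, from 0 to 60, again highest without Sa replicate 1 of set 1.

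Of 33 pairs of libraries with the same number, 10 had deviations correlated above 0.1 (median r of 0.0019), so the numbers were not taken to pair the libraries. As no depth is known, the counting error of low values, such as those of Cybrd1 and Epas1, cannot be given.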
